A study of Caenorhabditis elegans with 52 samples.

Results

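The genes described here are 10 cytochrome P450 genes of the nematode Caenorhabditis elegans, taken by their sequence IDs from gene count tables that list 45461 gene IDs, 80 of them P450 genes. Of the 10, 6 are cyp-34A genes on the cosmid B0213, namely B0213.10 (cyp-34A5), B0213.11 (cyp-34A6), B0213.12 (cyp-34A7), B0213.14 (cyp-34A8), B0213.15 (cyp-34A9) and B0213.16 (cyp-34A10). The other 4 lie elsewhere: C45H4.2 (cyp-33C1), C25E10.2 (cyp-33B1), B0331.1 (cyp-29A4) and F02C12.5 (cyp-13B1). The annotation puts 9 of the genes on chromosome V and cyp-13B1 on the X chromosome. By their names, 2 belong to the cyp-33 family, while cyp-29A4 and cyp-13B1 belong to neither family and are included by ID. The genes were chosen by their values with U0126 against DMSO in these libraries, so their values in that contrast are given as a description, with no test.

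The libraries were made from polyA RNA of whole young adult hermaphrodites of 3 genotypes. PL worms are the double mutant puf-8; lip-1, PF worms are the double mutant puf-8 fbf-1, and N2 is the wild type. Worms were held in 1 mL of S media with OP50 bacteria and either 100 uM U0126, an inhibitor of the kinase MEK, or the solvent DMSO alone, or were not treated. PL worms were sampled after 1, 2, 4, 6 and 18 h with U0126 or DMSO, with 3 libraries per group at 1 h and 2 at each later time. PF worms were sampled after 1, 2, 4 and 6 h with 1 library per group, and N2 worms after 1, 2, 6 and 18 h with 2 libraries per group. Each genotype also had 2 untreated libraries, which gives 52 libraries in all. PUF-8 and FBF-1 bind RNA, and the phosphatase LIP-1 restrains RAS-ERK signalling. Hermaphrodites lacking either gene pair produce sperm and no oocytes. The labels name no alleles and do not say whether replicates came from separate cultures, so the p-values given here reflect the spread between these libraries, which may be technical. In whole-worm RNA, fewer cells of a type and less RNA per cell cannot be told apart.

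Cytochrome P450 enzymes are haem proteins of the endoplasmic reticulum that insert an oxygen atom into small lipophilic molecules, using electrons delivered by a P450 reductase and, for some reactions, by cytochrome b5. In worms many P450 genes of the cyp-13, cyp-33, cyp-34 and cyp-35 families are active in the intestine and are known for their transcriptional response to foreign compounds, while other P450 enzymes make or break down endogenous lipids and steroids. Many sit in tandem arrays of similar copies. UDP-glucuronosyltransferases (ugt genes) act after P450 enzymes, adding sugar to the oxidised product.

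Gene-assigned counts ranged from 5370270 to 35120700 per library. Levels are given as CPM, that is, read counts scaled to a common library size, with library sizes adjusted by the trimmed mean of M-values (TMM). Summed oocyte markers stood at 148.2 to 4418 CPM in PL worms with DMSO, at 162.4 to 298.1 CPM in PF worms with DMSO and at 6301 to 9554 CPM in N2 worms with DMSO. Summed sperm markers stood at 566.6 to 2203 CPM in PL, 1911 to 2474 CPM in PF and 12.43 to 37.74 CPM in N2 worms with DMSO. The second N2 untreated library went against its group, with sperm markers at 4633 CPM and oocyte markers at 426 CPM, against 25.93 and 11526 CPM in the first, and results that rest on it are given with and without it. At 1 h the PL libraries of replicates 1 and 2 had molting-gene sums of 1044 to 1664 CPM and those of replicate 3 of 118.2 and 130.0 CPM. Intestinal markers, the cells in which many P450 genes are active, were all detected in every library.

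The largest differences between U0126 and DMSO among the 10 genes were those of cyp-34A7 and cyp-33C1, which were close to undetected in worms with DMSO and stood far higher in worms with U0126. In N2 worms cyp-34A7 stood at 6.38 and 8.31 CPM with U0126 at 1 h, against 0.743 and 0.184 CPM with DMSO. At 2 h its level was 71.9 and 74.0 CPM with U0126, against 0.109 and 0.231 CPM with DMSO. At 6 h it was 23.3 and 23.6 CPM with U0126, against 0.0527 and 0.0499 CPM with DMSO. At 18 h it was 1.22 and 1.34 CPM with U0126, against 0.215 and 0.185 CPM with DMSO. Of the 4 times sampled, the level with U0126 was highest at 2 h, and the libraries of the 2 treatments did not overlap at any of them. The fitted log2 difference was 4.15 ± 0.73 (SE) at 1 h, 8.69 ± 0.84 at 2 h and 2.64 ± 0.80 at 18 h. At 6 h the DMSO libraries held 2 counts in all, and the ratio of summed counts, scaled to library size, was 458 (exact 95% interval 126.5 to 3787, which covers counting error only).

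In PL worms cyp-34A7 stood at 27.3, 11.7 and 70.9 CPM with U0126 at 1 h, against 0.574, 0.470 and 0.108 CPM with DMSO. It was 123 and 165 CPM with U0126 at 2 h, against 0.115 and 0.585 CPM with DMSO. At 4 h it was 153 and 130 CPM with U0126, against 0.193 and 0 CPM with DMSO. Its level at 6 h was 10.9 and 9.92 CPM with U0126, against 0.109 CPM in both DMSO libraries. Its level at 18 h was 2.85 and 4.11 CPM with U0126, against 0.257 and 0.304 CPM with DMSO. The highest levels thus fell at 2 and 4 h, and at every time each library with U0126 was above each with DMSO. The fitted log2 difference was 6.40 ± 0.61 at 1 h, 8.69 ± 0.81 at 2 h and 3.61 ± 0.81 at 18 h. The count ratios at 4 and 6 h were 1198 (331.0 to 9897) and 95.7 (26.1 to 796). In PF worms the level with U0126 was 49.1, 162, 93.2 and 310 CPM at 1, 2, 4 and 6 h, against 0.357, 0.500, 0.768 and 0.150 CPM with DMSO, a fitted log2 difference of 8.75 ± 0.40 over the 4 times. The PF library with U0126 at 6 h was the highest of the 52, whereas the PL and N2 libraries with U0126 were lower at 6 h than at 2 h. With 1 library per PF group, no single PF hour has a replicate check. Untreated worms of the 3 genotypes had 0.0629 to 0.573 CPM.

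cyp-33C1 had 0 to 0.116 CPM in N2 worms with DMSO at 1, 2 and 6 h and 0 and 0.139 CPM at 18 h. With U0126 it stood at 0.319 and 0.915 CPM at 1 h, 10.5 and 13.4 CPM at 2 h, 29.5 and 36.7 CPM at 6 h and 0.870 and 0.827 CPM at 18 h. Its highest level in N2 worms was therefore at 6 h, later than that of cyp-34A7. The ratio of U0126 to DMSO was 20.7 (3.24 to 863) at 1 h, 217 (59.7 to 1795) at 2 h, 1295 (232 to 51193) at 6 h and 10.1 (3.22 to 51.0) at 18 h. Each of these rests on 1 to 3 DMSO counts. In PL worms with U0126 the gene stood at 7.68, 2.45 and 16.5 CPM at 1 h, 40.9 and 53.1 CPM at 2 h, 149 and 146 CPM at 4 h, 12.8 and 16.3 CPM at 6 h, and 10.6 and 9.10 CPM at 18 h. PL worms with DMSO had 0 to 0.218 CPM up to 6 h and 0.942 and 0.812 CPM at 18 h. The PL ratio was 225 (62.0 to 1862), 1502 (269 to 59355), 833 (285 to 4044) and 133 (36.4 to 1105) at 1, 2, 4 and 6 h. The fitted log2 difference at 18 h was 3.47 ± 0.71. In PF worms it stood at 10.2, 45.6, 43.7 and 260 CPM with U0126 at 1, 2, 4 and 6 h, against 0.179, 0.125, 0.192 and 0 CPM with DMSO. The libraries of the treatments did not overlap in any of the 9 replicated comparisons, which also held for cyp-34A7. Over all genes tested, every library with U0126 lay above every library with DMSO for 12.8%, 14.3%, 26.7% and 34% in N2 worms at 1, 2, 6 and 18 h, and for 2.33%, 16.9%, 17.3%, 32.6% and 30.9% in PL worms at 1, 2, 4, 6 and 18 h.

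**Figure D1:**
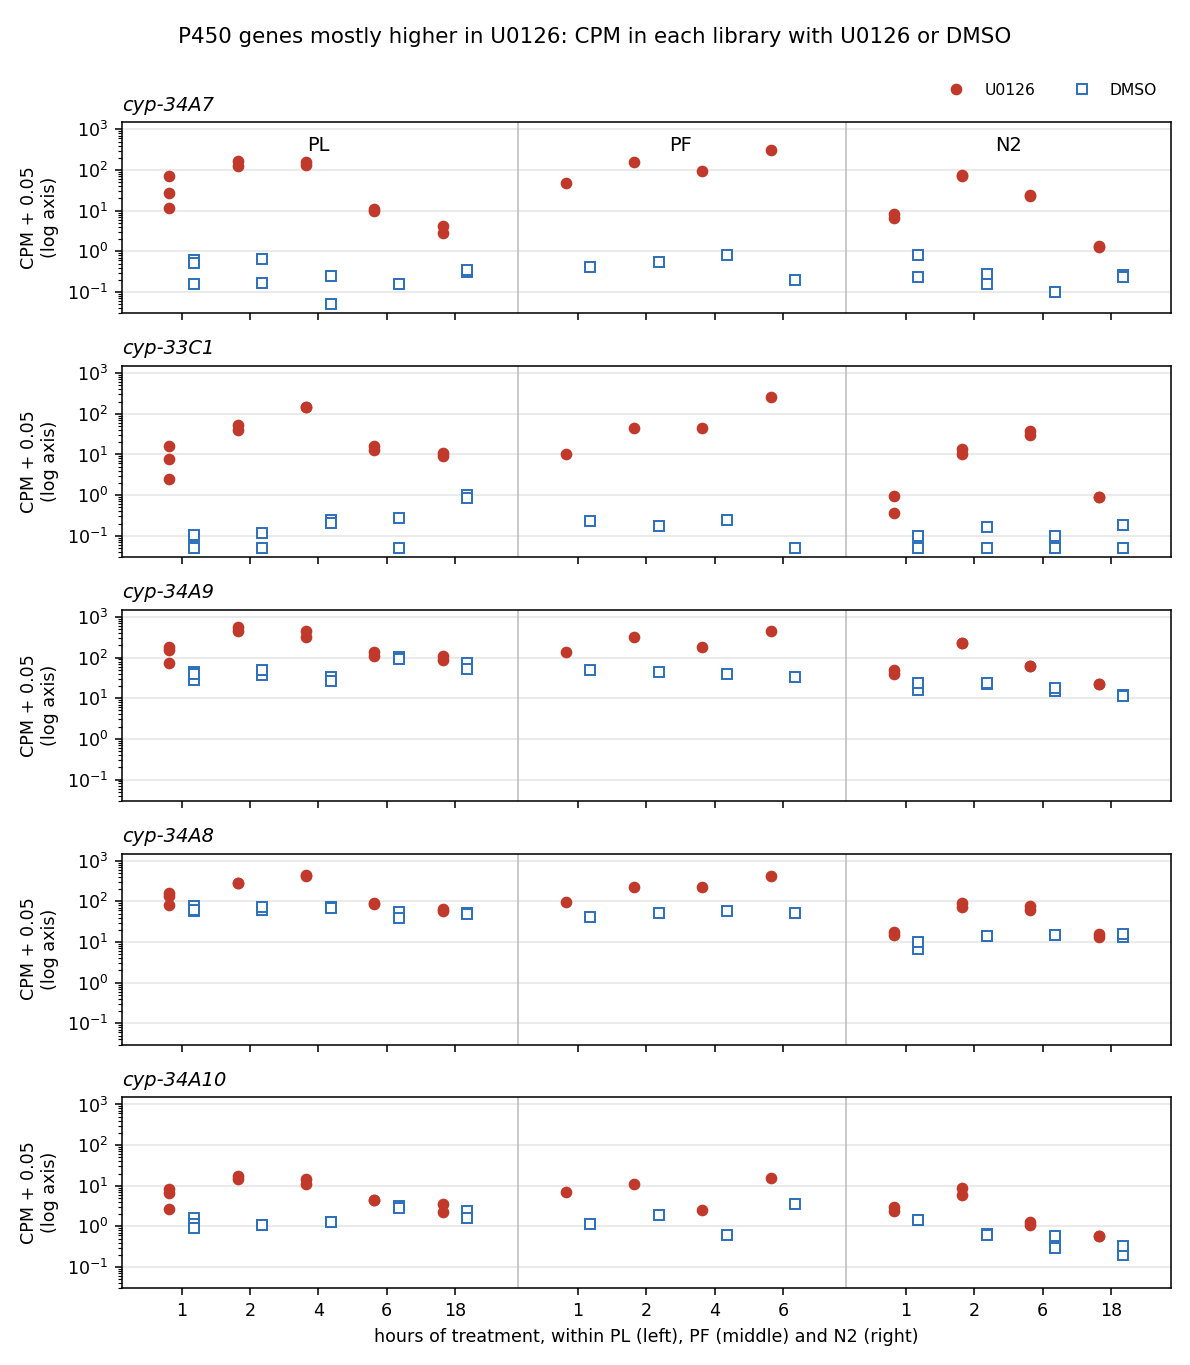
Level of cyp-34A7, cyp-33C1, cyp-34A9, cyp-34A8 and cyp-34A10 in each library on a logarithmic axis (CPM + 0.05), by hours in PL, PF and N2 worms. Filled red circles are libraries with U0126 and open blue squares libraries with DMSO. With DMSO, cyp-34A7 stands at 0.768 CPM or less and cyp-33C1 at 0.942 CPM or less in every library. cyp-34A8 and cyp-34A9 start from a visible level in PL and PF worms.

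cyp-34A8 and cyp-34A9, which follow cyp-34A7 in the annotated order of the cosmid, were well detected without the drug and showed smaller differences. In N2 worms cyp-34A9 stood at 38.3 and 48.9 CPM with U0126 at 1 h, against 16.1 and 24.1 CPM with DMSO. At 2 h it stood at 224 CPM in both U0126 libraries, against 22.2 and 23.3 CPM with DMSO. At 6 h it was 60.8 and 61.4 CPM with U0126, against 15.2 and 17.8 CPM with DMSO. At 18 h it was 22.2 and 22.1 CPM with U0126, against 11.7 and 11.6 CPM with DMSO. The fitted log2 difference was 1.12 ± 0.43, 3.29 ± 0.46, 1.89 ± 0.43 and 0.93 ± 0.43 at 1, 2, 6 and 18 h. As for cyp-34A7, the largest was at 2 h. In PL worms it stood at 152, 72.1 and 182 CPM with U0126 at 1 h, against 44.7, 28.3 and 40.3 CPM with DMSO. At 2 h it stood at 445 and 553 CPM with U0126, against 36.6 and 48.1 CPM with DMSO. At 4 h it was 454 and 322 CPM with U0126, against 32.8 and 26.0 CPM with DMSO, a log2 difference of 3.72 ± 0.47. At 6 h the PL libraries nearly met, with 108 and 135 CPM with U0126 and 105 and 90.4 CPM with DMSO. Its level at 18 h was 109 and 89.4 CPM with U0126, against 75.0 and 52.5 CPM with DMSO. In PF worms it was 136, 322, 183 and 458 CPM with U0126 at 1, 2, 4 and 6 h, against 48.7, 43.5, 40.3 and 32.9 CPM with DMSO, a log2 difference of 2.62 ± 0.31 over the 4 times.

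cyp-34A8 stood at 14.9 and 17.9 CPM with U0126 in N2 worms at 1 h, against 6.78 and 9.99 CPM with DMSO. At 2 h it stood at 73.2 and 93.5 CPM with U0126, against 13.8 and 14.1 CPM with DMSO. Its level at 6 h was still 62.9 and 76.5 CPM with U0126, against 14.5 and 14.4 CPM with DMSO. At 18 h it was 15.3 and 13.5 CPM with U0126, against 13.4 and 15.9 CPM with DMSO, the only replicated time at which its libraries overlapped. The log2 difference in N2 was 2.58 ± 0.23 at 2 h and 2.27 ± 0.23 at 6 h. In PL worms it stood at 133, 82.3 and 157 CPM with U0126 at 1 h, against 78.1, 56.7 and 60.2 CPM with DMSO. It was 279 and 284 CPM with U0126 at 2 h, against 59.5 and 73.9 CPM with DMSO. At 4 h it was 415 and 436 CPM with U0126, against 71.0 and 69.2 CPM with DMSO. The 4 h difference, 2.60 ± 0.23 on the log2 scale, was the largest in PL. The difference was 0.93 ± 0.22 at 6 h and 0.28 ± 0.22 at 18 h. In PF worms it was 95.5, 224, 223 and 428 CPM with U0126 at 1, 2, 4 and 6 h, against 40.7, 51.0, 56.4 and 51.2 CPM with DMSO, a log2 difference of 2.14 ± 0.24.

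cyp-34A10, the last gene of the array, was expressed at a few CPM and followed cyp-34A9. In N2 worms it stood at 2.31 and 2.96 CPM with U0126 at 1 h, against 1.39 and 1.38 CPM with DMSO. At 2 h it stood at 8.64 and 5.92 CPM with U0126, against 0.597 and 0.578 CPM with DMSO. The log2 difference was 3.61 ± 0.66 at 2 h. At 6 and 18 h the libraries with U0126 held 0.517 to 1.27 CPM, against 0.143 to 0.527 CPM with DMSO. In PL worms it was 6.45, 2.62 and 8.26 CPM with U0126 at 1 h, against 1.58, 1.10 and 0.860 CPM with DMSO. At 2 h it was 14.7 and 17.4 CPM with U0126, against 1.03 and 1.04 CPM with DMSO. At 4 h it was 14.6 and 10.8 CPM with U0126, against 1.26 and 1.21 CPM with DMSO. Its log2 difference in PL was 3.94 ± 0.65 at 2 h and 3.35 ± 0.66 at 4 h, and 0.56 ± 0.60 at 6 h and 0.54 ± 0.61 at 18 h. In PF worms it stood at 6.80, 10.9, 2.51 and 15.8 CPM with U0126 at 1, 2, 4 and 6 h, against 1.07, 1.87, 0.576 and 3.61 CPM with DMSO.

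Levels of different genes are compared per kilobase of exon. In PL worms at 2 h the order with U0126 was cyp-34A9 at 292 ± 45 CPM per kb, cyp-34A8 at 178 ± 2.0, cyp-34A7 at 91.3 ± 18.9, cyp-33C1 at 27.0 ± 5.0 and cyp-34A10 at 10.2 ± 1.2 CPM per kb (SD, n = 2). With DMSO at the same time the order was led by cyp-34A8 at 42.1 ± 6.4 and cyp-34A9 at 24.8 ± 4.8 CPM per kb. cyp-34A7 and cyp-33C1 came last of the 10, at 0.222 ± 0.211 and 0.0187 ± 0.0264 CPM per kb, which overlap each other. At 4 h with U0126, cyp-34A8 at 269 ± 9.4 and cyp-34A9 at 227 ± 55 CPM per kb lay within the spread of each other, as did cyp-34A7 at 89.7 ± 10.6 and cyp-33C1 at 84.8 ± 1.3 CPM per kb. The remaining 6 genes were each below 10 CPM per kb in these 4 h libraries.

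The first genes of the array, cyp-34A5 and cyp-34A6, stood at 0.380 to 13.4 CPM in N2 and PL worms, and their libraries with U0126 and DMSO overlapped in 4 of the 9 replicated comparisons each. cyp-34A5 ranged over 0.621 to 3.77 CPM with U0126 in N2 worms, with a median of 1.17 CPM, against 0.380 to 1.27 CPM with a median of 0.860 CPM with DMSO. In PL worms its range was 1.39 to 4.85 CPM with U0126 and 0.908 to 3.14 CPM with DMSO. At 2 h its log2 difference was 1.62 ± 0.66 in N2 and 1.58 ± 0.65 in PL worms, and at 6 and 18 h it lay between −0.24 and 0.15 in both. cyp-34A6 stood at 2.82 and 1.52 CPM with U0126 in N2 worms at 2 h, against 0.651 and 0.462 CPM with DMSO. At 6 h it stood at 1.88 and 2.48 CPM with U0126, against 0.580 and 0.948 CPM with DMSO. In PL worms it was 13.4 and 9.35 CPM with U0126 at 4 h, against 7.64 and 7.40 CPM with DMSO. Its level at 18 h was 2.85 and 2.60 CPM with U0126, against 5.65 and 5.68 CPM with DMSO, where its log2 difference was −1.06 ± 0.41. In PF worms the fitted log2 difference was 0.59 ± 0.69 for cyp-34A5 and 0.61 ± 0.40 for cyp-34A6.

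cyp-33B1 was the gene whose libraries with U0126 lay below those with DMSO most often, in 5 of the 9 replicated comparisons. Over all genes this held for 9.15%, 17.7%, 35.7% and 49.8% in N2 worms at 1, 2, 6 and 18 h, and for 2.52%, 20.1%, 18.9%, 14.8% and 34.2% in PL worms at 1, 2, 4, 6 and 18 h. In PL worms it stood at 4.94, 3.29 and 0.398 CPM with U0126 at 1 h, against 4.16, 2.82 and 0.860 CPM with DMSO. At 2 h it stood at 3.37 and 2.25 CPM with U0126, against 4.37 and 4.10 CPM with DMSO. It was 4.54 and 2.49 CPM with U0126 at 4 h, against 13.4 and 11.3 CPM with DMSO. Its level at 6 h was 7.14 and 7.65 CPM with U0126, against 19.2 and 14.3 CPM with DMSO. At 18 h it reached 46.5 and 30.9 CPM with U0126, against 191 and 168 CPM with DMSO. In PL worms the gene was thus highest at 18 h with either treatment, and the libraries of the treatments did not overlap from 2 h on. The log2 difference was −1.82 ± 0.74 at 4 h and −2.22 ± 0.69 at 18 h. PF worms had 0.486, 0.930, 1.18 and 2.27 CPM with U0126 at 1, 2, 4 and 6 h, against 0.536, 1.75, 4.22 and 17.4 CPM with DMSO, a log2 difference of −1.83 ± 0.51. In N2 worms it was at or below 0.116 CPM at 1 and 2 h. At 6 h it was 0.235 and 0.266 CPM with U0126, against 2.58 and 1.80 CPM with DMSO. At 18 h in N2 worms it was 2.54 and 2.53 CPM with U0126, against 1.29 and 2.46 CPM with DMSO. Summed molting genes were also lower with U0126 in N2 worms at 6 h, at 292.9 and 340.0 CPM against 592.9 and 667.2 CPM with DMSO. They were lower in N2 worms at 18 h too, at 137.5 and 161.4 CPM with U0126, against 537.3 and 640.9 CPM with DMSO, where cyp-33B1 was not lower. In PL worms at 4 and 6 h, where cyp-33B1 was lower in each library with U0126, they overlapped, at 105.8 to 127.0 CPM with U0126 and 118.4 to 135.2 CPM with DMSO. In PL worms at 18 h, where cyp-33B1 was lower too, the molting sums did not overlap. They were 76.75 and 77.67 CPM with U0126, against 124.0 and 128.5 CPM with DMSO. The part of these genes in the result was not tested.

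cyp-29A4 and cyp-13B1 had libraries that overlapped between the treatments in 6 and 5 of the 9 replicated comparisons. cyp-29A4 stood at 3.18, 1.56 and 21.0 CPM with U0126 in PL worms at 1 h, against 2.06, 2.72 and 23.7 CPM with DMSO. The third replicate thus differed from the others more than the treatments did. In PF worms it was 24.8, 17.9, 6.05 and 7.88 CPM with U0126 at 1, 2, 4 and 6 h, against 23.9, 18.0, 8.64 and 10 CPM with DMSO, a log2 difference of −0.16 ± 0.19. cyp-13B1 stood at 8.66 and 7.19 CPM with U0126 in N2 worms at 18 h, against 24.2 and 27.5 CPM with DMSO, a log2 difference of −1.70 ± 0.77. In PL worms at 18 h it was 2.24 and 2.45 CPM with U0126, against 1.71 and 0.812 CPM with DMSO. The median of all genes was −0.40 in N2 worms at 18 h, and 0.00 when libraries were scaled by relative log expression (RLE).

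**Figure D2:**
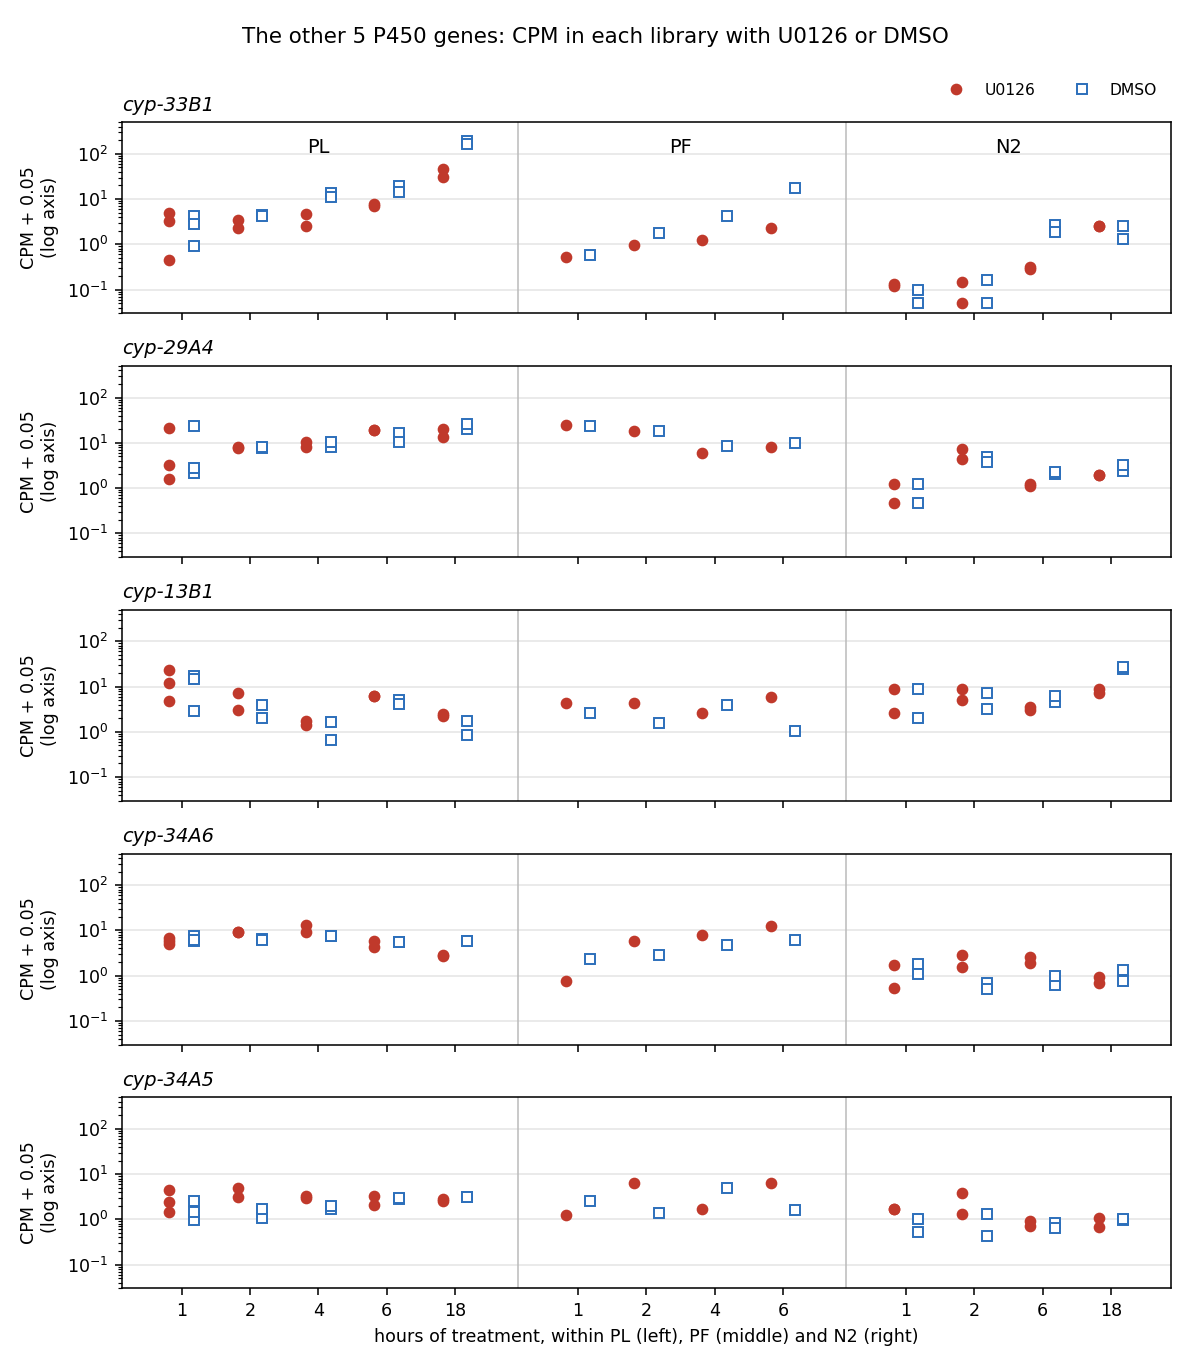
Level of cyp-33B1, cyp-29A4, cyp-13B1, cyp-34A6 and cyp-34A5 in each library on a logarithmic axis (CPM + 0.05), by hours in PL, PF and N2 worms, with U0126 as filled red circles and DMSO as open blue squares. cyp-33B1 in PL worms is highest at 18 h with both treatments and reaches 191 CPM with DMSO at 18 h. The points of the other 4 genes overlap between the treatments at many hours.

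Across the 9 replicated comparisons of U0126 with DMSO, every library with U0126 was above every library with DMSO in 9 for cyp-34A7, cyp-34A9 and cyp-33C1, in 8 for cyp-34A8 and cyp-34A10, in 4 for cyp-34A5 and cyp-34A6, in 2 for cyp-33B1 and cyp-13B1, and in 1 for cyp-29A4. Because this contrast chose the 10 genes, nothing is read from their counts.

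**Figure D3:**
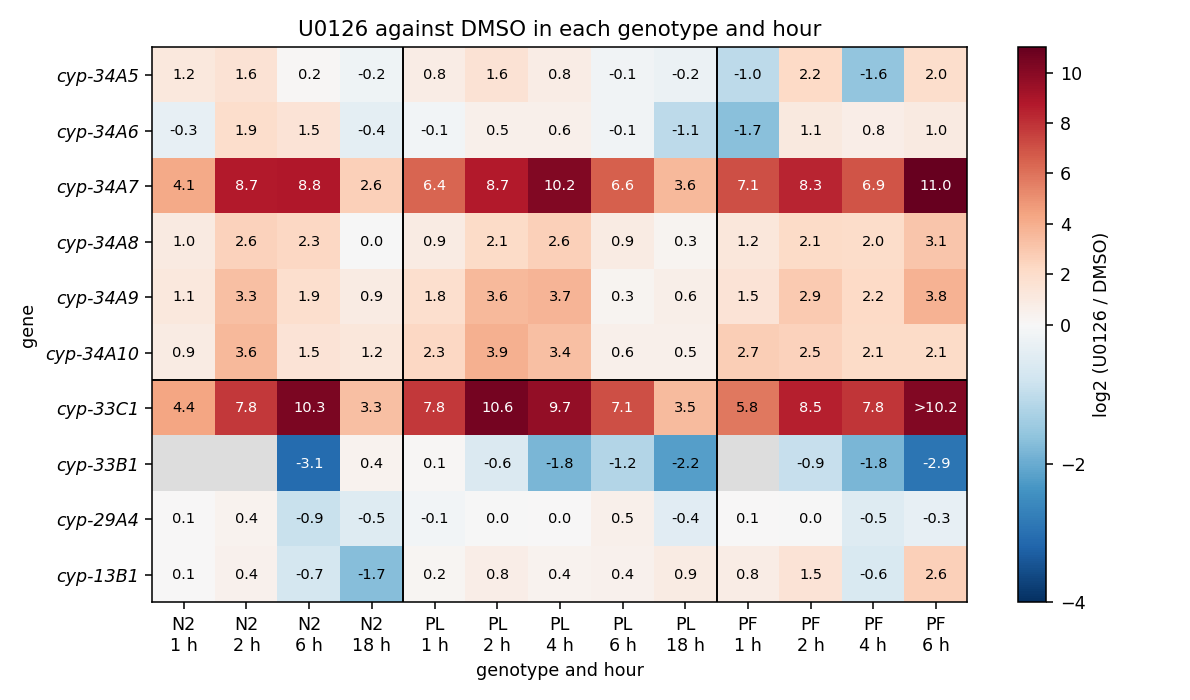
Log2 ratio of U0126 to DMSO for the 10 genes (rows) at the 13 combinations of genotype and hour (columns), with higher levels with U0126 in red and lower ones in blue. Grey cells had at most 3 counts in both groups and cells with > are lower bounds. The rows of cyp-34A7 and cyp-33C1 carry the largest values and the row of cyp-33B1 is mostly blue.

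The 6 cyp-34A genes lie side by side on the same strand, and their differences varied in size along the array, with the largest at cyp-34A7. At 2 h in N2 worms the log2 difference along the array was 1.62 for cyp-34A5, 1.93 for cyp-34A6, 8.69 for cyp-34A7, 2.58 for cyp-34A8, 3.29 for cyp-34A9 and 3.61 for cyp-34A10. In PL worms it was 1.58, 0.55, 8.69, 2.08, 3.56 and 3.94 in the same order. The sources used here do not give how reads matching several copies were counted, so copies may share reads. In PL worms with DMSO, cyp-34A7 held 0 to 0.585 CPM while its neighbour cyp-34A8 held 39.7 to 78.1 CPM.

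Beyond the array, the other 17 gene IDs of the cosmid were tested as far as they passed the filter, 11 in the fit of all libraries and 10 in that of PF worms. Of these, edgeR called 3 higher with U0126 in N2 worms at 2 h and at 6 h, in PL worms at 2 and 4 h and in PF worms, and 2 in PL worms at 1 h. Of all genes, 0.626% and 0.504% were called higher in N2 worms at 2 and 6 h, 0.225%, 0.863% and 1.05% in PL worms at 1, 2 and 4 h, and 0.525% in PF worms. All of those called higher were short non-coding RNAs annotated on the opposite strand within a cyp-34A gene, namely B0213.23 inside cyp-34A7, B0213.18 inside cyp-34A8 and B0213.24 inside cyp-34A9. B0213.23 had 0 counts with DMSO in N2 and PL worms at 2 h, and its level with U0126, 7.96 ± 0.61 CPM in N2 and 11.7 ± 4.2 CPM in PL worms, was at least 94.3-fold and at least 134-fold higher than the floor of 3 counts over the group. When the fit held only the groups compared, none of the 3 was called in PL worms at 1 h; without either DMSO library, 1 was called in N2 worms at 6 h, and without the second DMSO library, 1 in PL worms at 2 h. These RNAs are 102 to 106 bases long and overlap the P450 exons by 89 or 90 bases. Over all libraries with U0126 B0213.23 held 11.1 counts, B0213.18 11.5 counts and B0213.24 10.6 counts per 100 counts of their P450 gene. The library kit does not mark strand, so reads of the P450 gene and of its antisense partner cannot be told apart.

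The nlp genes at the far end of the cosmid encode antimicrobial and neuropeptide-like peptides. At 2 h, nlp-27 to nlp-31 and nlp-34 had log2 differences of −0.13 to 0.51 in N2 and −0.21 to 0.47 in PL worms, and none was called. In PF worms over 1 to 6 h the 6 genes had log2 differences of 0.32 to 1.44, the largest being 1.44 ± 0.39 for nlp-34 (edgeR adjusted p = 0.215). None was called there either, 4 had an unadjusted p under 0.05, and with no filter on low counts nlp-31 and nlp-34 were called. At 18 h in N2 worms, nlp-28, nlp-29 and nlp-30 were called lower, with nlp-28 at 9.13 ± 0.03 CPM with U0126 and 22.4 ± 6.2 CPM with DMSO (SD, n = 2), a log2 difference of −1.29 ± 0.31. The share of all genes called lower there was 30.4%, and 1 of these genes was called with RLE scaling. Without 1 of the 4 libraries 0 or 1 nlp gene was called. No B0213 gene outside the P450 array was called by edgeR or DESeq2 in N2 worms at 1 h or in PL worms at 6 and 18 h, where 2, 2 and 1 had an unadjusted p under 0.05.

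**Figure D4:**
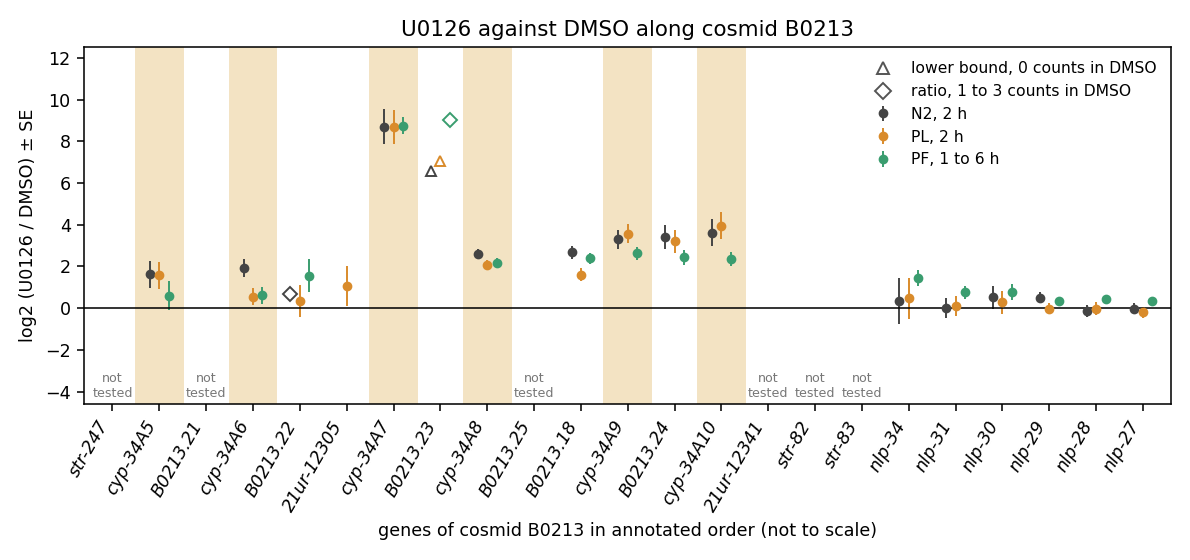
Log2 difference of U0126 and DMSO, with its standard error, for the genes of cosmid B0213 in annotated order (not to scale), in N2 and PL worms at 2 h and in PF worms over 1 to 6 h. The 6 cyp-34A genes are shaded, triangles are lower bounds and diamonds ratios of counts. The values from cyp-34A7 to cyp-34A10 stand above 1.5 in all 3, and those of the nlp genes lie between −0.21 and 0.51 in N2 and PL worms and between 0.32 and 1.44 in PF worms.

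The genes whose pattern was most like that of each P450 gene were named from Pearson's r over log2(CPM + 1) in the 52 libraries, which share depth and treatment. For cyp-34A7 they were B0213.23 (r = 0.979), the UDP-glucuronosyltransferase gene ugt-36 (0.977), E02C12.6 (0.975), T16G1.4 (0.964) and E02C12.10 (0.962). ugt-36 ranged over 3.03 to 507 CPM with U0126, with a median of 31.0 CPM, against 0.543 to 5.50 CPM with a median of 1.87 CPM with DMSO. For cyp-33C1 they were cror-2 (0.974) and its family member cyp-33C2 (0.971), and for cyp-34A8 B0213.18 (0.974) and ugt-1 (0.918). They were for cyp-34A9 B0213.24 (0.984) and ugt-25 (0.917), and for cyp-34A10 the same pair (0.935 and 0.900). For cyp-33B1 they were H39E23.3 (0.867) and B0284.5 (0.853), and for cyp-29A4 JC8.7 (0.831) and F23D12.11 (0.820). They were for cyp-13B1 hil-3 (0.805) and C45G7.4 (0.758), for cyp-34A5 avr-15 (0.748) and C53B4.3 (0.733), and for cyp-34A6 hum-8 (0.882) and tag-244 (0.876). Among the 10 genes themselves, r was 0.94 for cyp-34A7 with cyp-33C1, 0.93 for cyp-34A9 with cyp-34A10 and −0.16 for cyp-34A7 with cyp-33B1. The antisense RNAs B0213.23, B0213.18 and B0213.24 lie inside cyp-34A7, cyp-34A8 and cyp-34A9. Their reads cannot be told apart from those of these P450 genes, and the part of shared reads in their r was not tested.

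The genotype comparisons are not the contrast that chose the genes. They were tested with edgeR's quasi-likelihood test, with adjusted p-values over all genes. The comparisons below that include DMSO libraries share them with that contrast. The genes were also chosen with earlier results of these data known. The calls and p-values of the comparisons below may therefore not be independent of the choice. Untreated PL worms differed from untreated N2 worms in 4 of the 10 genes, 2 higher and 2 lower, where 38.1% of all genes were called, 12.4% higher and 25.7% lower, and their median log2 difference was −0.21. cyp-34A6 stood at 5.09 and 5.49 CPM in PL worms, against 0.504 and 1.15 CPM in N2 worms, a log2 difference of 2.66 ± 0.43 (edgeR adjusted p = 4.19e-05). cyp-34A8 stood at 55.1 and 49.5 CPM in PL worms, against 20.1 and 21.2 CPM in N2 worms, a log2 difference of 1.34 ± 0.22 (edgeR adjusted p = 5.13e-05). cyp-34A9 at 7.98 and 5.25 CPM in PL, against 8.31 and 35.9 CPM in N2 worms, and cyp-34A10 at 0.217 and 0.244 CPM in PL, against 0.252 and 3.04 CPM in N2 worms, were called lower at log2 differences of −1.73 ± 0.44 and −2.81 ± 0.69. Without the second N2 untreated library these 2 were −0.31 (edgeR adjusted p = 0.495) and −0.14 (0.882), and neither was called. cyp-34A9 was also not called without the second PL untreated library (0.0516).

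Untreated PF worms differed from N2 worms in 3 of the 10 genes, where 34.4% of all genes were called. cyp-34A6 stood at 2.70 and 2.61 CPM in PF worms, against 0.504 and 1.15 CPM in N2 worms, a log2 difference of 1.67 ± 0.45 (edgeR adjusted p = 0.00433), and was not called without the first N2 library (0.0809). cyp-34A8 stood at 43.1 and 41.6 CPM in PF worms, against 20.1 and 21.2 CPM in N2 worms, a log2 difference of 1.04 ± 0.22 (edgeR adjusted p = 5.89e-04). cyp-34A10 was called lower at 0.135 and 0.747 CPM in PF worms, with an edgeR adjusted p of 0.0488. It was not called without the first PF library (0.421) or with RLE scaling (0.0576), and its log2 difference was 0.66 without the second N2 library. Without the second N2 library cyp-34A9 was called higher in PF worms (log2 difference 1.30, edgeR adjusted p = 0.00989), against a log2 difference of −0.10 with it. Both comparisons use the same N2 libraries. When the fit held only the groups compared, none of the 10 genes was called in either. Between untreated PL and PF worms none of the 10 genes was called by edgeR, 3 had an unadjusted p under 0.05 and DESeq2 called 2, where edgeR called 1.01% of all genes. These 3, named after their values were seen, were cyp-34A6, cyp-34A9 and cyp-29A4. cyp-34A9 stood at 7.98 and 5.25 CPM in PL worms, against 15.7 and 25.6 CPM in PF worms, a log2 difference of −1.63 ± 0.44 (edgeR adjusted p = 0.0716). cyp-29A4 stood at 0.341 and 0.244 CPM in PL worms, against 4.19 and 4.86 CPM in PF worms, a log2 difference of −3.87 ± 1.07 (edgeR adjusted p = 0.0752). edgeR called both when the second N2 untreated library was left out of the fit, and all 3 with only these groups in it.

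In DMSO, cyp-34A6 and cyp-34A8 were higher in PL than in N2 worms at every time tested, and more of the 10 genes were called at later times. At 1 h 5 were called higher, where 42.3% of all genes were, at 2 h 3 against 34.6%, at 6 h 7 against 26.5% and at 18 h 8 against 20.3%. At 1 and 2 h those shares were close to that of all genes, whose median log2 difference was 0.60 and 0.46 there, against −0.08 at 6 h and −0.18 at 18 h. When the fit held only the groups compared, 3 genes were called at 1 h and 5 at 2 h. At 18 h 1 gene was called lower, where 23.1% of all genes were. Intestinal markers without the yolk genes summed to 4371 to 8027 CPM in PL worms with DMSO, 5772 to 6930 CPM in PF worms and 2308 to 3581 CPM in N2 worms, so they were higher in both double mutants; their part in the result was not tested.

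cyp-34A6 had 5.45 to 7.64 CPM in the 11 PL libraries with DMSO, with a median of 6.02 CPM, against 0.462 to 1.77 CPM with a median of 0.832 CPM in the 8 N2 libraries. Its log2 difference was 2.19 ± 0.40, 3.47 ± 0.45, 2.83 ± 0.44 and 2.46 ± 0.43 at 1, 2, 6 and 18 h, with edgeR adjusted p from 9.43e-07 to 1.38e-04. cyp-34A8 stood at 78.1, 56.7 and 60.2 CPM in PL worms at 1 h, against 6.78 and 9.99 CPM in N2 worms, a log2 difference of 2.95 ± 0.23 (edgeR adjusted p = 6.55e-10). At 2, 6 and 18 h its log2 difference was 2.26 ± 0.23, 1.69 ± 0.22 and 1.81 ± 0.23. These 2 genes were called at all 4 times and did not overlap between the genotypes.

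cyp-34A9 and cyp-34A10 separated the genotypes at the later times. At 6 h cyp-34A9 stood at 105 and 90.4 CPM in PL worms, against 15.2 and 17.8 CPM in N2 worms, a log2 difference of 2.57 ± 0.44 (edgeR adjusted p = 4.10e-05), and at 18 h its log2 difference was 2.45 ± 0.44 (2.10e-04). At 1 h it was called with a log2 difference of 0.91 ± 0.39 (edgeR adjusted p = 0.0413), which was lost without the first N2 library (0.40, adjusted p = 0.469), the first PL library (0.111) or the third PL library (0.0755), and at 2 h it was not called (0.0644). cyp-34A10 stood at 3.16 and 2.83 CPM in PL worms at 6 h, against 0.527 and 0.249 CPM in N2 worms, a log2 difference of 2.92 ± 0.67 (edgeR adjusted p = 6.59e-04), and at 18 h its log2 difference was 3.08 ± 0.73 (0.00175). cyp-34A5 averaged 2.89 ± 0.07 CPM in PL worms at 6 h and 0.695 ± 0.136 CPM in N2 worms (SD, n = 2 each), with an edgeR adjusted p of 0.0123 that was 0.0676 without the second N2 library. Its call at 18 h (adjusted p = 0.0418) was lost without any 1 of the 4 libraries.

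cyp-33B1 had the largest difference. Its level at 18 h stood at 191 and 168 CPM in PL worms with DMSO, against 1.29 and 2.46 CPM in N2 worms, a log2 difference of 6.56 ± 0.86 (edgeR adjusted p = 8.42e-06). Its level at 6 h stood at 19.2 and 14.3 CPM in PL worms, against 2.58 and 1.80 CPM in N2 worms, a log2 difference of 2.93 ± 0.74 (edgeR adjusted p = 0.00154). At 1 and 2 h N2 worms held 1 and 2 counts, and the ratio of PL to N2 was 98.1 (17.3 to 3899) and 75.8 (20.6 to 632). cyp-33C1 was called at 18 h, at 0.942 and 0.812 CPM in PL worms, against 0 and 0.139 CPM in N2 worms, a ratio of 10.4 (3.08 to 55.1) with an edgeR adjusted p of 0.0116. The adjusted p was 0.0728 without the first N2 library and 0.0521 without the first PL library.

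cyp-29A4 was higher in PL worms with DMSO at 18 h, at 20.2 and 26.2 CPM, against 2.36 and 3.15 CPM in N2 worms, a log2 difference of 3.06 ± 0.93 (edgeR adjusted p = 0.0102; 0.0679 without the first N2 library). It was also called at 6 h with a log2 difference of 2.68 ± 0.92 (edgeR adjusted p = 0.0145), and that call was lost without either N2 library or the first PL library. At 1 h the log2 difference was 3.59 ± 0.97 (edgeR adjusted p = 0.00207), but 1.64 (0.0609) without the third PL library, which held 23.7 CPM against 2.06 and 2.72 CPM in the other two. cyp-13B1 went the other way at 18 h, at 1.71 and 0.812 CPM in PL worms, against 24.2 and 27.5 CPM in N2 worms, a log2 difference of −4.33 ± 0.89 (edgeR adjusted p = 6.07e-04). cyp-34A7 was not called between PL and N2 worms at any time with DMSO by edgeR or DESeq2, nor did it have an unadjusted p under 0.05 in these 4 tests (0 of 4).

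Between PL and PF worms with DMSO over 1 to 6 h, 8 of the 10 genes could be tested and none was called by edgeR, where 8.78% of all genes were. Of these, 3 had an unadjusted p under 0.05 and DESeq2 called 2. The largest log2 difference was 1.06 ± 0.39 for cyp-33B1 (edgeR adjusted p = 0.107), followed by 0.92 ± 0.72 for cyp-13B1 and 0.76 ± 0.23 for cyp-34A6 (0.0603). cyp-34A9, at 0.09 ± 0.30, and cyp-34A8, at 0.34 ± 0.14, were nearer to 0.

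The DMSO medium itself was set against no treatment at 2 h. In PL worms 3 of the 10 genes were called higher, where 0.541% of all genes were. cyp-34A9 stood at 36.6 and 48.1 CPM in PL worms with DMSO, against 7.98 and 5.25 CPM in untreated PL worms, a log2 difference of 2.67 ± 0.45 (edgeR adjusted p = 0.00147; 0.0751 without the second untreated library). cyp-33B1 stood at 4.37 and 4.10 CPM with DMSO, against 0 and 0.122 CPM untreated, a ratio of 103 (28.0 to 860) with an edgeR adjusted p of 0.00171 (0.111 without the first untreated library). cyp-29A4 stood at 7.70 and 8 CPM with DMSO, against 0.341 and 0.244 CPM untreated, a log2 difference of 4.67 ± 1.06 (edgeR adjusted p = 0.0222), and its call was lost without any 1 of the 4 libraries. DMSO and the move from plates into liquid cannot be told apart here. In N2 worms 1 gene, cyp-34A5, was called lower with DMSO, where 24.4% of all genes were. It stood at 1.27 and 0.380 CPM, against 1.01 and 5.96 CPM untreated, and was not called without the second untreated library (log2 difference −0.29).

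Between 18 and 6 h in DMSO, 1 gene was called in PL worms, where 3.55% of all genes were. cyp-33B1 was higher at 18 h than at 6 h by 3.42 ± 0.73 on the log2 scale (edgeR adjusted p = 0.0138), and the call was lost without either 6 h library or the first 18 h library (adjusted p 0.125 to 0.171). Oocyte markers summed to 4418 and 3365 CPM in the PL libraries at 18 h with DMSO, the highest of the PL libraries with DMSO. They were higher still at 18 h with U0126, at 11463 and 8518 CPM, where cyp-33B1 stood at 46.5 and 30.9 CPM, below its level with DMSO; the part of these markers in the result was not tested. In N2 worms none of the 10 was called by edgeR, where 5.96% of all genes were, 1 had an unadjusted p under 0.05 and DESeq2 called 1. That gene was cyp-13B1, named after its values were seen, at 24.2 and 27.5 CPM at 18 h, against 4.43 and 6.18 CPM at 6 h, a log2 difference of 2.28 ± 0.78 (edgeR adjusted p = 0.0842).

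Of the other 70 P450 genes, 62 passed the filter in the fit of all libraries and 59 in that of PF worms, and many were higher with U0126. In N2 worms 21 of 62 were called higher at 2 h, where 0.626% of all genes were, 12 at 6 h, where 0.504% were, and 11 at 18 h, where 15% were. At 1 h none was called by edgeR, where 0.0121% of all genes were called higher, 7 had an unadjusted p under 0.05 and DESeq2 called 1. In PL worms 9, 28, 25, 5 and 14 were called higher at 1, 2, 4, 6 and 18 h, where 0.225%, 0.863%, 1.05%, 0.158% and 11.3% of all genes were. In PF worms 12 of 59 were called higher, where 0.525% of all genes were. The median log2 difference of the 62 genes was 1.34 at 2 h in N2 worms, against −0.01 over all genes, and 1.68 at 2 h in PL worms, also against −0.01. Calls of lower levels in the fit of all libraries came at 18 h, 7 in N2 worms and 1 in PL worms, where 30.4% and 2.72% of all genes were called lower. In N2 worms at 18 h intestinal markers without the yolk genes summed to 1328 and 1310 CPM with U0126, against 3312 and 3365 CPM with DMSO; their part in the result was not tested. When the fit held only the groups compared, 24 of the 62 were called higher and 10 lower in N2 worms at 6 h and 0 were called in PL worms at 1 h. Counts of calls fell to 12 in N2 worms at 2 h without the first DMSO library, to 11 of 18 in N2 worms at 18 h without the second DMSO library, to 5 in PL worms at 1 h without the second DMSO library. They fell to 16 in PL worms at 2 h without the first DMSO library and at 4 h without either DMSO library, to 9 of 15 in PL worms at 18 h without either DMSO library, and to 3 in PF worms without either 2 h library.

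**Figure D5:**
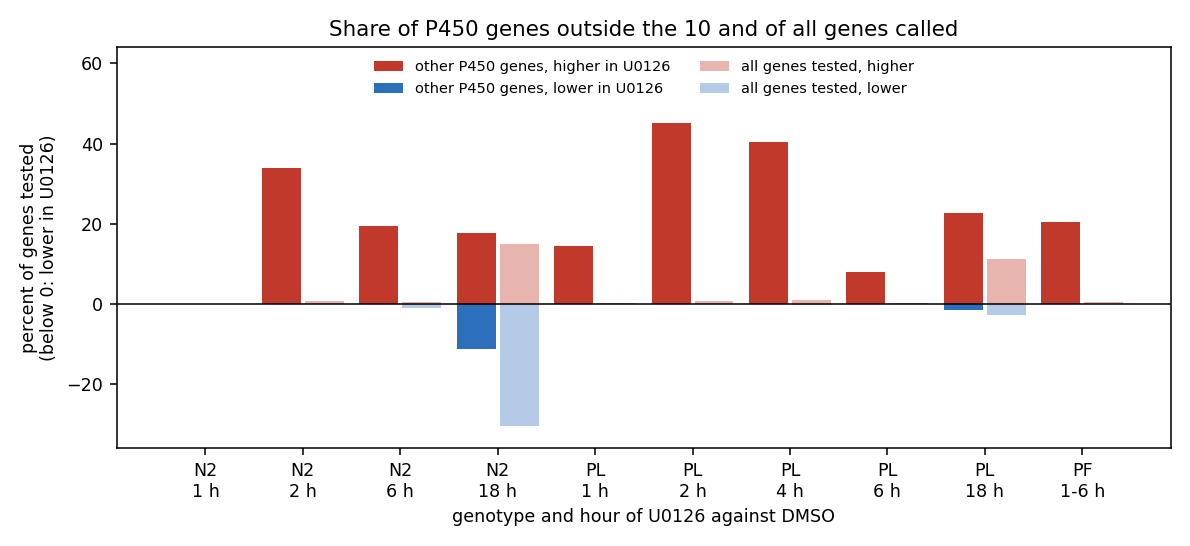
Percent of the other P450 genes and of all genes called higher or lower with U0126 at an adjusted p under 0.05 in edgeR, in each of the 10 comparisons of U0126 with DMSO. The P450 bars for higher levels stand far above those of all genes at 2 h in N2 and PL worms (21 and 28 of 62 genes) and closer to them at 18 h (11 and 14 genes).

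By family, calls at 2 h were spread over cyp-35, cyp-13 and cyp-33 genes. Of 9 cyp-35 genes 6 were called higher in N2 and 7 in PL worms at 2 h, and 8 in each at 18 h. Of 13 cyp-13 genes other than cyp-13B1 7 were called higher in N2 and 9 in PL worms at 2 h. At 18 h none was called higher and 1 lower in N2 worms, and 3 were called higher in PL worms. Of 14 other cyp-33 genes 4 were called higher in N2 and 6 in PL worms at 2 h. At 18 h 1 was called higher in each, and 2 were called lower in N2 worms. Of all genes, 30.4% were called lower in N2 worms at 18 h. The cyp-34A genes outside the cosmid number 3, of which 2 were tested, and edgeR called neither in any comparison of U0126 with DMSO. cyp-34A1 had an unadjusted p under 0.05 in 2 of 9 tests and no DESeq2 call, and cyp-34A2 in 3 of 10 with 1 DESeq2 call. The families were not tested against each other.

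cyp-33C2 and cyp-35A4 were called higher in 9 of the 10 comparisons. cyp-35A4 averaged 705 ± 176 CPM with U0126 and 0.613 ± 0.226 CPM with DMSO in PL worms at 4 h (SD, n = 2 each), a log2 difference of 10.1 ± 0.72. It averaged 728 ± 0.19 CPM with U0126 and 1.08 ± 0.12 CPM with DMSO in N2 worms at 6 h, and 209 ± 5.4 CPM with U0126 and 1.48 ± 0.13 CPM with DMSO in N2 worms at 18 h. Its level with U0126 in N2 worms was thus lower at 18 h than at 6 h. cyp-34A7 held 1.22 and 1.34 CPM with U0126 in the same 18 h worms. cyp-33C2, which by its ID lies on the same cosmid as cyp-33C1, averaged 44.9 ± 9.0 CPM with U0126 and 0.224 ± 0.010 CPM with DMSO in N2 worms at 2 h. cyp-35A3 averaged 956 ± 11 CPM with U0126 and 1.74 ± 0.37 CPM with DMSO in N2 worms at 6 h. cyp-13A4 averaged 51.3 ± 21.9 CPM with U0126 in PL worms at 2 h, where DMSO libraries held 3 counts in all. cyp-35B2 averaged 123 ± 236 CPM with U0126 over the 4 PF times, against 0.330 ± 0.540 CPM with DMSO. Of the genes called lower, cyp-42A1 averaged 2.99 ± 0.30 CPM with U0126 and 11.5 ± 2.8 CPM with DMSO in N2 worms at 18 h. cyp-33A1 averaged 6.49 ± 0.77 CPM with U0126 and 15.8 ± 0.7 CPM with DMSO. In PL worms at 18 h cyp-14A1 averaged 2.06 ± 0.04 CPM with U0126 and 5.46 ± 0.46 CPM with DMSO. The calls of cyp-33A1 and cyp-14A1 were lost without any 1 of their 4 libraries.

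Of 3 genes whose products feed electrons to P450 enzymes, 2 were called higher with U0126 in some comparisons. These genes were listed with earlier results of these data known, so their calls and p-values are given as a description. Of all genes, 15% were called higher in N2 and 11.3% in PL worms at 18 h. In each of the other comparisons of U0126 with DMSO that share was at most 1.05%. emb-8, which encodes the P450 reductase, was called higher with U0126 in PL worms at 1, 2, 4 and 18 h, in N2 worms at 2 and 18 h and in PF worms. It averaged 648 CPM with U0126 and 132 CPM with DMSO in PL worms at 2 h, a log2 difference of 2.30 ± 0.19 (edgeR adjusted p = 1.81e-08). It averaged 334 CPM with U0126 and 170 CPM with DMSO in N2 worms at 2 h (0.97 ± 0.18, adjusted p = 0.00396). The cytochrome b5 gene cytb-5.1 was called higher in N2 worms at 2 and 6 h and in PL worms at 2 and 4 h, with 203 CPM with U0126 and 62.1 CPM with DMSO in PL worms at 2 h (log2 difference 1.71 ± 0.21). The calls of emb-8 were lost in N2 worms at 2 h without either DMSO library, in PL worms at 1 h without the third U0126 library or with only those groups in the fit. They were also lost in PL worms at 18 h without the second DMSO library or either U0126 library, and in PF worms without any 1 library of 2 or 4 h. Those of cytb-5.1 in N2 worms were lost at 2 h without any 1 of the 4 libraries and at 6 h without any but the first U0126 library. At 18 h in N2 worms it averaged 31.9 CPM with U0126 and 44.2 CPM with DMSO, a log2 difference of −0.47 ± 0.21 (edgeR adjusted p = 0.0646), and was called lower in 2 alternative fits. Its paralogue cytb-5.2 was not called by edgeR or DESeq2 in any of the 10 comparisons and had no unadjusted p under 0.05 (0 of 10), with log2 differences of −0.20 to 0.21.

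Of 20 regulator genes known from worm lipid, xenobiotic or intestinal gene control, none was called by edgeR at any hour under 18, while up to 6 had an unadjusted p under 0.05, in N2 worms at 6 h, and DESeq2 called none. Fitted with only those groups, 1 was called higher and 7 lower in N2 worms at 6 h, and 1 higher in PL worms at 4 h. At 18 h 2 were called higher and 14 lower in N2 worms, where 15% and 30.4% of all genes were. In PL worms at 18 h 2 were called higher and 2 lower, where 11.3% and 2.72% of all genes were. The nuclear receptor gene nhr-86 was higher in both, at 56.6 CPM with U0126 and 27.4 CPM with DMSO in N2 worms (log2 difference 1.05 ± 0.23, edgeR adjusted p = 0.00102), and 39.0 CPM with U0126 and 18.6 CPM with DMSO in PL worms (1.07 ± 0.23, 0.00311). nhr-49 was called higher in N2 worms (0.50 ± 0.19) and nhr-66 in PL worms (0.90 ± 0.30). The nuclear receptor genes nhr-68 (−2.01 ± 0.29 in N2, −0.87 ± 0.28 in PL worms) and daf-12 (−1.30 ± 0.18 in N2, −0.64 ± 0.17 in PL worms) were called lower in both. A further 12 in N2 worms, namely nhr-8, nhr-35, nhr-42, nhr-80, nhr-114, aha-1, pmk-1, hlh-30, sbp-1, elt-2, elt-7 and pha-4, were called lower, with log2 differences of −2.07 to −0.80, all below the median of all genes there, which was −0.40. With RLE scaling 10 regulators were called lower and 5 higher in N2 worms at 18 h, and without 1 of the 4 libraries 5 to 8 were called lower. In PL worms no regulator was called lower without any 1 of the 4 libraries, and nhr-86 was not called without the second DMSO library. elt-2 and elt-7, GATA factors of the intestine, stood at 3.47 and 1.76 CPM with U0126 and at 11 and 5.62 CPM with DMSO, and both genes are also in the intestinal marker list that was lower in these libraries. Whether the genotypes differ in these calls was not tested. The regulator genes were also listed with earlier results of these data known, so their calls and p-values are given as a description.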

How the data were processed

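The authors deposited 1 table of whole-number read counts per gene for each of 52 polyA RNA-seq libraries, with 45461 gene IDs. TopHat, CASAVA, DESeq and the build ce10 are named per the submitters' processing notes; the sources used here do not say which tool counted reads or with which strand setting. Each table also has 5 lines for unassigned reads, left out of library sizes. They give 48.2 to 54.8% of reads as matching no feature and 0.31 to 0.451% as ambiguous in 51 libraries, and are blank in 1. Gene-assigned counts were 5370270 to 35120700 per library. Intervals on ratios are exact at the 95% level and, with the floor of 3 counts over a group, cover counting error only. No 2 replicates agreed within sampling noise.

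Names and gene order came from the RefSeq annotation of WBcel235, in which 44080 IDs matched and 1381 did not. Chromosome, strand, exon lengths and the overlaps with antisense RNAs came from a separate gene annotation of WBcel235. Positions were used only for gene order, exon lengths and these overlaps. Libraries were grouped by genotype, treatment and hour from the labels. Counts were fitted with edgeR 4.0.16 (R 4.3.3, limma 3.58.1) by the quasi-likelihood F test, with 1 coefficient for each of 29 groups, TMM scaling, genes at 1 CPM or more in at least 2 libraries (16462 genes), 23 residual degrees of freedom and Benjamini-Hochberg adjustment over all genes tested; called means an adjusted p under 0.05. PL against PF in DMSO and U0126 against DMSO in PF worms were fitted on their own libraries with hour as a factor. The SE of a log2 difference is its size divided by the square root of F. Levels are CPM, or CPM per kilobase of exon between genes. Scripts were tested on simulated counts for 1 comparison, with a dispersion of 0.05, below the common dispersion of 0.129 in the data. In that simulation 83% of 4-fold and 14.8% of 2-fold changes were called, and 4.5% of the calls were false. Tables were made with Python 3.11.15, pandas 2.3.3, SciPy 1.17.1 and matplotlib 3.10.9.

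The 10 genes and all gene lists were chosen with earlier results of these data known. Named outside the 10 are, for each comparison of U0126 with DMSO, up to 2 called genes with the largest rise and 2 with the largest fall among the other P450 genes and among the other B0213 genes, provided the libraries of the treatments did not overlap and the higher group averaged 5 CPM or more, of which some are described; every partner and regulator gene called; and the genes of most similar pattern (5 for cyp-34A7 and 2 for each other gene). Genes of the nlp family, the untested or uncalled cyp-34A genes and cytb-5.2 are named beyond this rule.

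Alternatives were RLE scaling, no filter, only the groups compared in the fit, DESeq2 1.42.0, each library left out in turn, the second N2 untreated library left out of the fit, a replicate block and, for the 2 comparisons over 1 to 6 h, 1 fit of all libraries. Fits without a library and with a block keep the dispersion trend of all libraries, so that a group left with 1 library is assumed to vary like the others. The third PL replicate alone at 1 h, the crossed blocks and all alternatives for partner and regulator genes were chosen after seeing the data. Of the comparisons, PL worms at 1 h has 3 numbered pairs of U0126 and DMSO libraries, and same-numbered libraries deviated together (r of 0.812 to 0.911 over genes, against up to 0.764 for other numbers); the pairing comes from these values and not from the labels.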

Additional observations from a re-analysis of the deposited data

Results flagged for a closer look

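For 3 of the 10 genes, every library with U0126 lay above every library with DMSO in one genotype and below in the other at the same hour. Over all genes, every library with U0126 lay below in N2 worms for 35.7% at 6 h and 49.8% at 18 h. In PL worms every library with U0126 lay above for 32.6% at 6 h and 30.9% at 18 h, and below for 34.2% at 18 h. The share of all genes that lay opposite ways in the 2 genotypes was not counted, so nothing is read from the 3 genes. The difference between the genotypes was not tested, since the contrast of U0126 with DMSO chose the genes. At 6 h the fitted log2 difference of U0126 and DMSO was 0.53 ± 0.86 (SE) in PL worms and −0.88 ± 0.92 in N2 worms for cyp-29A4, and 0.43 ± 0.78 in PL worms and −0.71 ± 0.77 in N2 worms for cyp-13B1. At 18 h it was −2.22 ± 0.69 in PL worms and 0.42 ± 0.71 in N2 worms for cyp-33B1, and 0.88 ± 0.85 in PL worms and −1.70 ± 0.77 in N2 worms for cyp-13B1. Of these 8 values, 5 lay within 1 SE of 0.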

How the results depend on the processing

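Over the alternatives tried, 263 of 340 counts of called genes stayed within 1.5 times the value reported, and 77 moved further; the cause was not tested. Of 1207 tests of single P450 genes between genotypes, media or times, 1120 kept their direction and call, 46 lost a call, 39 gained one and 2 changed direction. Both changes of direction came without N2 untreated replicate 2, for untreated PF against N2 worms. There the log2 difference over the libraries left out ranged over −0.80 to 1.3 for cyp-34A9 and over −3.53 to 0.66 for cyp-34A10, the upper values being those without that library, where cyp-34A9 was called higher. Of 753 tests of named genes outside the 10 with U0126, 615 kept the call, 138 lost it and 0 changed direction. Of 676 values of the 10 genes with U0126, 151 moved by more than the spread between replicates and 48 changed sign.

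With only the groups compared in the fit, calls among the 10 genes were 0 for untreated PL against N2 (4 with all libraries), 0 for untreated PF against N2 (3), 3 for untreated PL against PF (0), 3 and 5 for PL against N2 in DMSO at 1 and 2 h (5 and 3), 0 for N2 in DMSO at 2 h against untreated (1), and 2 and 3 for 18 h against 6 h in N2 and PL worms (0 and 1). In the same fits, other P450 genes called with U0126 were 34 and 33 in N2 worms at 6 and 18 h (12 and 18), and 0, 18, 12 and 25 in PL worms at 1, 2, 6 and 18 h (9, 28, 5 and 15), and other B0213 genes were 5 and 6 in N2 worms (3 and 3) and 0, 1, 2 and 1 in PL worms (2, 3, 0 and 0). With no filter on low counts, 2 of the 10 genes were called between untreated PL and PF worms, 1 other P450 gene in N2 worms at 1 h, 33 other P450 genes and 5 other B0213 genes in PF worms (12 and 3), and 0 other B0213 genes in N2 worms at 18 h (3). Without N2 untreated replicate 2 anywhere in the fit, 2 of the 10 were called between untreated PL and PF worms and 1 between 18 and 6 h in N2 worms, 22 other P450 genes in N2 worms at 6 h and 1 other B0213 gene in PL worms at 6 h. DESeq2 called 2 of the 10 between untreated PL and PF worms, 2 between PL and PF worms with DMSO (0), 2 for N2 in DMSO against untreated and 1 between 18 and 6 h in N2 worms, 1 and 15 other P450 genes in N2 and PL worms at 1 h (0 and 9), and 1 other B0213 gene in N2 worms at 18 h. RLE scaling gave 2 for N2 in DMSO against untreated and 1 other B0213 gene in N2 worms at 18 h. One fit of all libraries over the mean of the 4 hours called 1 of the 10 between PL and PF worms with DMSO and 28 other P450 genes in PF worms, and the third replicate alone at 1 h gave 4 other P450 genes and 1 other B0213 gene in PL worms and 0 of the 10 between PL and PF worms.

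Leaving out 1 library at a time, with the spread taken from the fit of all libraries, gave 2 to 5 of the 10 for untreated PL against N2, 3 to 6 for PL against N2 in DMSO at 1 h, 0 to 2 for PL against PF in DMSO, 0 to 3 and 1 to 2 for DMSO against untreated in N2 and PL worms, and 0 to 1 for 18 h against 6 h in PL worms. Other P450 genes called with U0126 were then 12 to 20 and 11 to 13 in N2 worms at 2 and 18 h, 5 to 13, 16 to 29, 16 to 20 and 9 to 12 in PL worms at 1, 2, 4 and 18 h, and 3 to 19 in PF worms, and other B0213 genes were 1 to 3 and 0 to 1 in N2 worms at 6 and 18 h and 1 to 2 and 1 to 3 in PL worms at 1 and 2 h. With replicate number as a block, 2 of the 10 were called for N2 in DMSO at 2 h against untreated, where 2 against 2 libraries share only a number, and no other count moved by over 1.5 times. For PL against N2 in DMSO at 2 h and U0126 in N2 worms at 6 h, where same-numbered libraries deviated apart (r of −0.134 and −0.168), crossing the pairs left the counts of calls as they were. No paired analysis was possible for the comparisons over 1 to 6 h because PF worms have replicate 1 only.

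The share of called genes that were higher depended on scaling. It was 33% with TMM and 59.8% with RLE for U0126 in N2 worms at 18 h, 35.5% and 56.0% at 6 h, 80.7% and 69.0% in PL worms at 18 h, 46.9% and 59.1% for PL against N2 in DMSO at 18 h, and 85.7% and 59.9% in N2 and 81.2% and 20.3% in PL worms for 18 h against 6 h. The common dispersion was 0.129 with and 0.0626 without N2 untreated replicate 2. With DMSO, cyp-34A7 holds 2 to 22 counts per group and cyp-33C1 0 to 19, which limits the precision of their differences from U0126.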
